A study of Mus musculus with 6 samples.

Results

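The 27 transcripts of the mitochondrial genome described here were the rows whose gene symbol starts with mt- in a table of 3542 liver genes. They comprised 11 messenger RNAs (mRNAs) and 16 transfer RNAs (tRNAs), of the 13 mRNA, 22 tRNA and 2 ribosomal RNA (rRNA) genes annotated on mouse mitochondrial DNA. Liver mRNA-seq was performed in 3 Mul1(+/+) and 3 Mul1(−/−) mice, to profile expression after loss of Mul1, the gene of an E3 ubiquitin ligase of the outer mitochondrial membrane. Mul1(−/−) animals were described by the authors as deficient for Mul1 in the whole body and were bred from heterozygotes. The controls, Mul1(+/+), carried both copies, and both groups received a high-fat diet (HFD) for 16 weeks from 8 weeks of age. The strain and the sex of the 6 animals were not given in the sources used here. The values are normalized read counts, that is, reads divided by 1 scaling factor per library. The table lists genes that had passed the authors' own test between these groups (adjusted p up to 0.05, change of 2-fold or more either way), so each of the 27 was selected on the same 6 libraries. The 2 rRNA genes, mt-Atp8, mt-Nd4 and 6 tRNA genes were not analysed here.

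Mammalian mitochondrial DNA is a small circle whose genes have no introns and lie almost end to end. Both strands are transcribed into long precursors, in which tRNAs stand between most mRNAs and rRNAs and are cut out by dedicated nucleases, which frees the RNAs on either side. The mRNAs encode core subunits of respiratory Complexes I, III and IV and of the ATP synthase, Complex V, and all other subunits are imported from the cytosol. Liver, which oxidises fatty acids in mitochondria, contains abundant mitochondrial RNA. Long stretches of mitochondrial DNA have also been copied into nuclear chromosomes during evolution, and reads from a recent copy can hardly be told from reads of the original.

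The tRNAs that carry the comparison are shown first, because they include the member that passed the test and the tRNAs with the highest counts. Their sequences are the annotated genes of GENCODE M21 on GRCm38, read in the direction of transcription, with the anticodon in capitals. mt-Tw, the tryptophan tRNA gene, lies at chrM:4950-5016 on the plus strand and had the largest difference between groups. mt-Tl1, a leucine tRNA gene at chrM:2676-2750 on the plus strand, mt-Te, the glutamate tRNA gene at chrM:14071-14139 on the minus strand, and mt-Tp, the proline tRNA gene at chrM:15356-15422 on the minus strand, had the highest mean counts of the tRNAs in Mul1(+/+).
mt-Tw: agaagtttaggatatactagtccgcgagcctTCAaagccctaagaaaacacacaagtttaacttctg
mt-Tl1: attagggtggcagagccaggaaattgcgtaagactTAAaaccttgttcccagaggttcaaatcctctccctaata
mt-Te: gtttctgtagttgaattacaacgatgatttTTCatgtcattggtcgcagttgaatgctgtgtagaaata
mt-Tp: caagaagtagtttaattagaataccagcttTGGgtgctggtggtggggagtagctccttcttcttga

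The targeted gene was lower in the libraries labelled Mul1(−/−), but not absent. Mul1 had normalized counts of 3172, 3232 and 3423 in Mul1(+/+) replicates 1 to 3, and the libraries labelled Mul1(−/−) had 1037, 965 and 1753 in the same order. The groups did not overlap, and Mul1(−/−) replicate 3 had the highest count of the 3, at 0.535 of the Mul1(+/+) mean. Reads summed over the table's genes ranged from 11932165 to 15385828 per library, which is part of each library and not its depth, and 1 read was worth 0.817 to 0.886 normalized counts in Mul1(+/+) and 1.46, 1.22 and 0.878 in Mul1(−/−) replicates 1 to 3. The labels name both liver tissue and hepatocytes. Of 9 hepatocyte markers 3 were in the table (Apob, Hnf4a and Tat), with sums of 181863 to 290795 in Mul1(+/+) and 105171 to 106048 in Mul1(−/−), and 4 of 5 cholangiocyte markers had sums of 1292 to 1891 and 4878 to 5100. Among the other lists, sums were 3352 to 3910 and 1184 to 2140 for 2 of 5 endothelial markers, 3452 to 4335 and 5569 to 24011 for Dcn of 5 stellate markers, 282 to 535 and 775 to 1539 for 2 of 5 lymphocyte markers, and 5052 to 7563 and 803 to 4287 for Alas2 of 5 erythroid markers. None of these was at 0 in any library, no macrophage or adipocyte marker was in the table, and the part of these cells in the mitochondrial values was not tested. In such bulk samples, fewer cells of a type and less RNA per cell cannot be told apart.

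All 27 mitochondrial transcripts had a higher mean log2 value in Mul1(−/−) than in Mul1(+/+) HFD-liver, where 56.8% of the whole table was higher. The difference was uneven between the 3 animals. Together the 27 transcripts took 13.4%, 10.7% and 12.5% of the table's reads in Mul1(+/+) replicates 1 to 3, while replicates 1 to 3 of Mul1(−/−) gave 49.4%, 22.8% and 15.4%. The share averaged 12.2% ± 1.39 (SD, n = 3) in the controls and 29.2% ± 17.9 (SD, n = 3) in the Mul1(−/−) animals, a ratio of 2.39. The groups did not overlap, although replicate 3, which also had the highest Mul1 count of its group, lay only just above the controls. Within that group, Mul1 was lowest in replicate 2 (965) and the share was highest in replicate 1. A link between Mul1 count and share was not tested. Without Mul1(−/−) replicate 1 the ratio was 1.57. The summed normalized counts of all other genes of the table overlapped between the groups, with a ratio of 0.976.

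**Figure D1:**
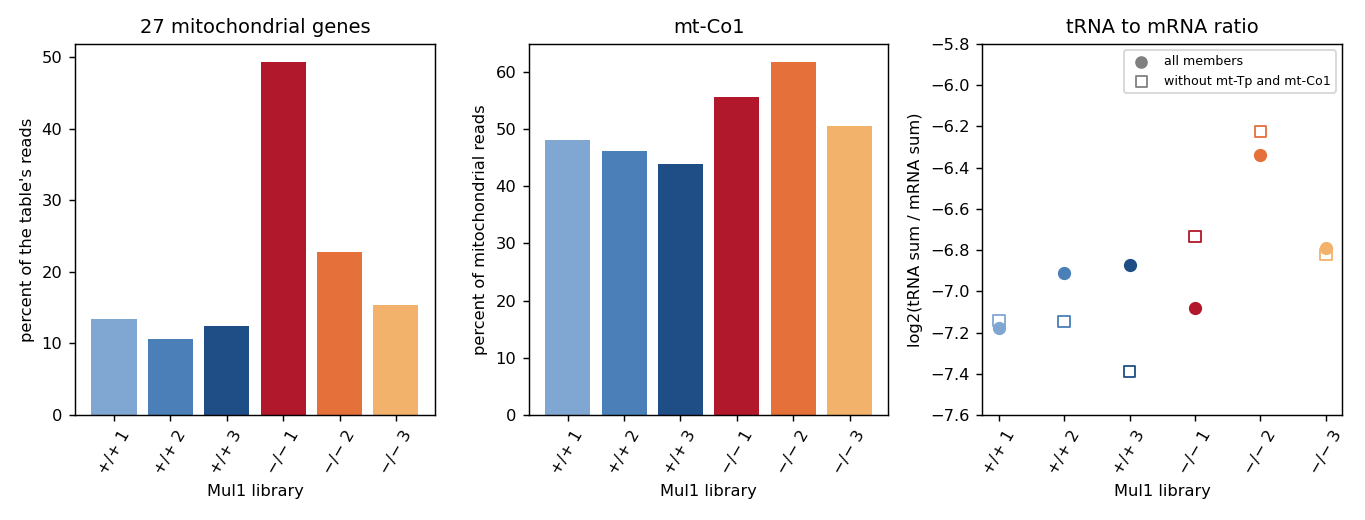
Share of the table's reads on the 27 mitochondrial genes (left, percent), share of mt-Co1 among mitochondrial reads (middle, percent) and log2 ratio of summed tRNA to summed mRNA normalized counts (right), with 1 bar or point pair per library of Mul1(+/+) (blue) and Mul1(−/−) (red to orange). Mul1(−/−) replicate 1 reached 49.4% on the left, and mt-Co1 took 50.5% to 61.8% of mitochondrial reads in Mul1(−/−) against 43.9% to 48.1% in Mul1(+/+).

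Gene by gene, the 3 Mul1(−/−) libraries followed the same order for every mitochondrial transcript. Replicate 1 was the highest and replicate 3 the lowest of the 3 in 27 of 27 genes, whereas the order 1 above 2 above 3 held for 23% of the whole table. That share takes in lower as well as higher genes. Among the 2012 higher genes, replicate 1 was the highest in 38.3%, and the share with the full order was not computed. Relative to the Mul1(+/+) mean, the median mitochondrial mRNA was 5.58-fold in replicate 1, 2.14-fold in replicate 2 and 1.06-fold in replicate 3. For the tRNAs these medians were 7.86-fold, 4.20-fold and 1.47-fold. Replicate 3 lay within the range of the 3 Mul1(+/+) values for 15 of the 27 genes, 9 of 11 mRNAs and 6 of 16 tRNAs, against 6.8% of the table. Genes are not independent of one another within a library, so the 27 together speak of 3 animals.

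With limma on log2(value + 1), adjusted over the 3542 genes by the Benjamini-Hochberg method, 1 of the 27 passed an adjusted p-value under 0.01 with a log2 fold change above 1. It was mt-Tw. Of the whole table, 16.7% passed as higher and 7.43% as lower under this rule, and of the 2012 genes that were higher, 29.4% passed, so mitochondrial genes did not pass more often than other genes. At an adjusted p-value under 0.05 the count was 20 of 27 (5 mRNAs and 15 tRNAs), against 53% of the table and 93.3% of its higher genes. By unadjusted p under 0.05 it was also 20 of 27, against 96.4% of the table in either direction. The authors had already selected all 3542 genes on the same libraries, so the adjustment changed the p-values little where they were largest. The limma adjusted p-values given here are therefore not false discovery rates over all liver genes. The 3 Mul1(−/−) values lay above all 3 Mul1(+/+) values in 12 of 27 genes (2 mRNAs and 10 tRNAs), against 49.3% of the table and 86.8% of its higher genes. In the other 15 the groups overlapped, as they did in 9.68% of the table, so overlap between the groups was more frequent among the mitochondrial transcripts. The 2 mRNAs without overlap, mt-Nd3 and mt-Co3, lie in a stretch copied to chromosome 1, described below, where counts are uncertain. Outside it all 6 mRNAs overlapped. Of the 5 mRNAs with an adjusted p-value under 0.05, 3 lie in it. The median log2 fold change was 1.25 (range 0.95 to 1.69) for the mRNAs and 1.91 (range 1.0 to 2.83) for the tRNAs. The table's median of 1.12 takes in lower as well as higher genes. It is therefore not the typical size of a rise, and these medians cannot be ranked among the rises by it. An exact two-sided permutation test of 3 against 3 libraries cannot give a p below 0.1 for a single gene.

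**Figure D2:**
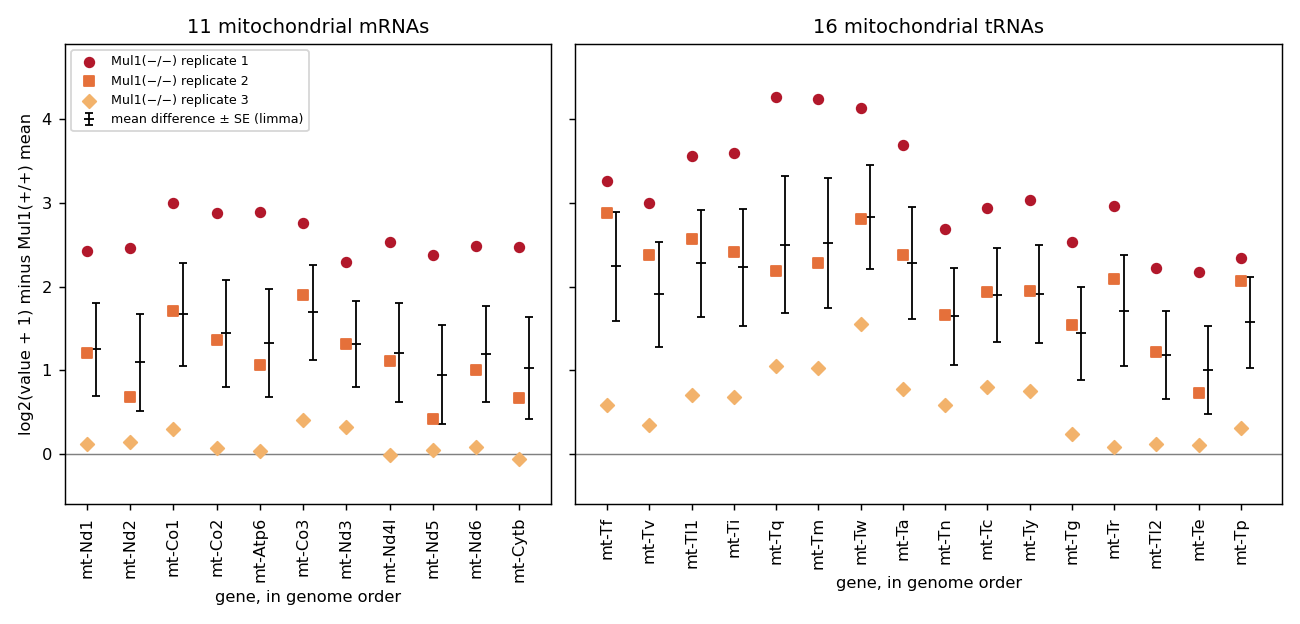
Difference of log2(value + 1) from the Mul1(+/+) mean for each mitochondrial mRNA (left) and tRNA (right), in genome order, with 1 coloured point per Mul1(−/−) library and a black cross for the mean difference ± the standard error from limma (n = 3 per group). Replicate 3 sits near 0 for the mRNAs, and the black crosses of the tRNAs from mt-Tf to mt-Ty lie between 1.65 and 2.83.

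The Complex I mRNAs encode subunits of NADH dehydrogenase, the entry point of electrons from NADH, and 6 of them were in the table. mt-Nd1 had normalized counts of 154091, 123342 and 162639 in Mul1(+/+) and of 782724, 334907 and 158784 in Mul1(−/−) replicates 1 to 3. Replicates 1 and 2 were above every control and replicate 3 was among them, with a log2 fold change of 1.25 (standard error 0.56, limma adjusted p = 0.0499, exact permutation p = 0.2). For mt-Nd2 the counts were 176453, 122580 and 188794 in Mul1(+/+) and 879185, 256839 and 176343 in Mul1(−/−). The groups again overlapped through replicate 3, and the log2 fold change was 1.10 (standard error 0.58, limma adjusted p = 0.0891).

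The longest mitochondrial mRNA, mt-Nd5, had counts of 167707, 116690 and 151535 in Mul1(+/+) and of 748358, 192770 and 148005 in Mul1(−/−). Its log2 fold change of 0.95 (standard error 0.59, limma adjusted p = 0.137) was the lowest of the 27. mt-Nd6, the only mRNA gene on the minus strand, had counts of 35131, 28742 and 29958 in Mul1(+/+) and of 174609, 62643 and 33136 in Mul1(−/−). Replicate 3 was within the control range, and the log2 fold change was 1.19 (standard error 0.57, limma adjusted p = 0.0638). mt-Nd5 and mt-Nd6 share 14 bases on opposite strands, and whether counting used strand was not given in the sources used here, so reads of one strand cannot be told from those of the other in this overlap.

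mt-Nd3 and mt-Nd4l were the Complex I mRNAs with few reads. Both lie in the stretch copied to chromosome 1, so their counts are uncertain. Counts of mt-Nd3 were 901, 705 and 787 in Mul1(+/+) and 3887, 1983 and 993 in Mul1(−/−). The groups did not overlap, and the log2 fold change was 1.31 (standard error 0.51, limma adjusted p = 0.0314, exact permutation p = 0.1). Counts of mt-Nd4l were 273, 195 and 233 in Mul1(+/+) and 1344, 500 and 230 in Mul1(−/−). Replicate 3 was within the controls, and the log2 fold change was 1.21 (standard error 0.59, limma adjusted p = 0.069). Over the 6 Complex I mRNAs, none passed the limma threshold, where 16.7% of the table passed as higher. An unadjusted p under 0.05 was found for 2 (96.4% of the table), and the median log2 fold change was 1.20.

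mt-Cytb, the cytochrome b gene and the only Complex III subunit of the mitochondrial genome, had counts of 353885, 232469 and 258791 in Mul1(+/+) and of 1545489, 440578 and 265982 in Mul1(−/−). Replicates 1 and 2 were above all controls, and replicate 3 was at 0.944 of the Mul1(+/+) mean. The log2 fold change was 1.03 (standard error 0.61, limma adjusted p = 0.120, exact permutation p = 0.2).

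The Complex IV genes encode the 3 core subunits of cytochrome c oxidase, which passes electrons to oxygen. mt-Co1 was the most abundant member, with counts of 835260, 545065 and 629952 in Mul1(+/+) and of 5268483, 2156038 and 813540 in Mul1(−/−). Replicate 3 lay just below the highest control, and the log2 fold change was 1.67 (standard error 0.62, limma adjusted p = 0.0267, exact permutation p = 0.2). As a share of mitochondrial reads, which does not depend on the library scaling, mt-Co1 took 48.1%, 46.2% and 43.9% in Mul1(+/+) and 55.6%, 61.8% and 50.5% in Mul1(−/−), so here all 3 Mul1(−/−) libraries were above the controls. This share averaged 46.1% ± 2.11 (SD, n = 3) in the controls and 55.9% ± 5.66 (SD, n = 3) in the Mul1(−/−) animals.

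mt-Co2 had counts of 91.9, 56.7 and 66.2 in Mul1(+/+) and of 525, 182 and 73.8 in Mul1(−/−), with a log2 fold change of 1.44 (standard error 0.64, limma adjusted p = 0.0486). mt-Co3 had counts of 304, 254 and 252 in Mul1(+/+) and of 1835, 1008 and 358 in Mul1(−/−). For mt-Co3 the groups did not overlap, and the log2 fold change was 1.69 (standard error 0.57, limma adjusted p = 0.0202, exact permutation p = 0.1), while replicate 3 of mt-Co2 was within the controls. mt-Atp6, a subunit of the membrane part of ATP synthase, had counts of 100.3, 65.5 and 70.2 in Mul1(+/+) and of 579, 163 and 79.0 in Mul1(−/−). Here too replicate 3 was within the controls, and the log2 fold change was 1.33 (standard error 0.65, limma adjusted p = 0.068). mt-Co2, mt-Co3 and mt-Atp6 also lie in the copied stretch, so their counts are uncertain.

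Relative to the summed mRNA counts of the same library, mt-Co1 was above the controls in all 3 Mul1(−/−) libraries, with a mean log2 difference of 0.28. mt-Nd5 (log2 difference −0.44), mt-Cytb (−0.36) and mt-Nd4l (−0.18) were below the controls in all 3, and the other 7 mRNAs overlapped. These values are free of the library scaling, but mt-Co1 is also the largest part of the sum. They describe composition only, no test was made on them, and no share over the whole table was computed for this measure.

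**Figure D3:**
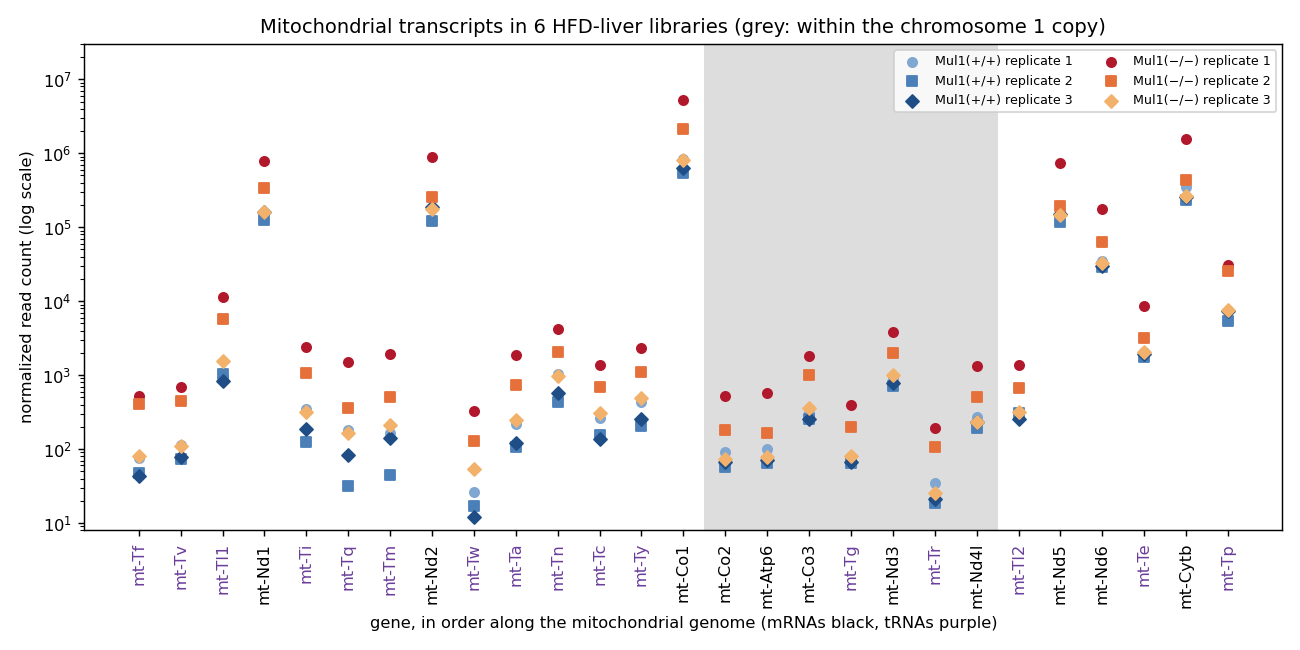
Normalized read counts (log axis) of the 27 mitochondrial genes in genome order, with 1 point per library (3 Mul1(+/+) in blue, 3 Mul1(−/−) in red to orange) and the genes within the stretch copied to chromosome 1 in grey. mt-Co2 and mt-Atp6 reached at most 525 and 579 in any library, whereas mt-Co1, next to them in the genome, reached 5268483.

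The tRNAs read the mitochondrial code and, as gene units, lie between the mRNAs and rRNAs. Reads on a tRNA gene may come from the tRNA or from a longer RNA that still contains it, and these cannot be told apart here. The 4 sequences shown above also carry the values. mt-Tw had normalized counts of 26.1, 16.8 and 12.3 in Mul1(+/+) and of 324, 129 and 53.6 in Mul1(−/−) replicates 1 to 3. All 3 Mul1(−/−) values were above the controls, replicate 3 at 2.91-fold of the Mul1(+/+) mean, and the log2 fold change was 2.83 (standard error 0.62, limma adjusted p = 0.00789, exact permutation p = 0.1). It rested on 15 to 31 reads per Mul1(+/+) library and on 61 to 222 per Mul1(−/−) library, and mt-Tw shares 2 bases with mt-Nd2, which had at least 138417 reads per library. The call was lost with any 1 Mul1(+/+) library or Mul1(−/−) replicate 2 left out, when the adjusted p was 0.0212 to 0.0329, and was kept without Mul1(−/−) replicate 1 or 3.

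mt-Tl1, next to mt-Nd1 in the genome, had counts of 976, 1039 and 845 in Mul1(+/+) and of 11264, 5652 and 1548 in Mul1(−/−). The groups did not overlap, and the log2 fold change was 2.28 (standard error 0.64, limma adjusted p = 0.0129, exact permutation p = 0.1). The most abundant tRNA gene, mt-Tp, had counts of 5593, 5329 and 7412 in Mul1(+/+) and of 30593, 25379 and 7505 in Mul1(−/−). Replicate 3 exceeded the highest control by little, and the log2 fold change was 1.57 (standard error 0.55, limma adjusted p = 0.0224, exact permutation p = 0.1). For mt-Te the counts were 2030, 1745 and 1902 in Mul1(+/+) and 8511, 3141 and 2027 in Mul1(−/−). Replicate 3 was within the controls, and its log2 fold change of 1.0 (standard error 0.53, limma adjusted p = 0.0876) was the lowest of the tRNAs.

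The other 12 tRNAs had log2 fold changes from 1.19 for mt-Tl2 to 2.52 for mt-Tm, none past the threshold (16.7% of the table passed as higher). All 12 had an unadjusted limma p under 0.05, as had 96.4% of the table. By position, the 11 tRNAs ahead of mt-Co1 in the genome, from mt-Tf to mt-Ty, had a median log2 fold change of 2.24 (range 1.65 to 2.83), and the 5 behind it, mt-Tg, mt-Tr, mt-Tl2, mt-Te and mt-Tp, had a median of 1.44 (range 1.0 to 1.71). In Mul1(−/−) replicate 3 the medians were 1.62-fold and 1.08-fold of the Mul1(+/+) mean. The grouping by position was made after the values were seen, and it was not tested. By strand, the median over the tRNAs was 1.90 for the 7 on the minus strand and 2.23 for the 9 on the plus strand.

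Set against the mRNAs of the same library, 7 of the 16 tRNAs were above the controls in all 3 Mul1(−/−) libraries and 9 overlapped. The 7 were mt-Tf, mt-Tv, mt-Tl1, mt-Ti, mt-Tm, mt-Tw and mt-Ta, all ahead of mt-Co1, with mean log2 differences from 0.53 for mt-Tv to 1.51 for mt-Tw. The share of the whole table without overlap was not computed on this measure, so whether 7 of 16 is frequent is not known. The summed tRNA counts were 11891, 9740 and 12147 in Mul1(+/+) and 69488, 42649 and 14434 in Mul1(−/−), and did not overlap. The summed mRNA counts were 1724198, 1170163 and 1423079 in Mul1(+/+) and 9407018, 3447610 and 1597526 in Mul1(−/−), and overlapped through replicate 3. The ratio of group means was 3.75 for the tRNA sum and 3.35 for the mRNA sum, and without Mul1(−/−) replicate 1 it was 2.53 and 1.75.

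The log2 ratio of the tRNA sum to the mRNA sum was −7.18, −6.91 and −6.87 in Mul1(+/+) and −7.08, −6.34 and −6.79 in Mul1(−/−). These values overlapped, and the mean difference was 0.25. The sums are dominated by mt-Tp, which made up 44.0% to 61.0% of tRNA reads, and by mt-Co1. With these 2 genes left out the log2 ratio was −7.14, −7.15 and −7.39 in Mul1(+/+) and −6.73, −6.22 and −6.82 in Mul1(−/−), a mean difference of 0.63 without overlap. This exclusion was not in the planned comparison. mt-Co1 was a larger part of the mRNA sum in all 3 Mul1(−/−) libraries than in the controls, so leaving it out raises the ratio more in Mul1(−/−). The tRNA to mRNA ratio therefore depended on the most abundant member of each class.

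The second pattern among the members was their level. Per kilobase of gene, the 6 mRNAs mt-Co1, mt-Cytb, mt-Nd2, mt-Nd1, mt-Nd5 and mt-Nd6 had mean normalized counts of 433717, 246254, 156656, 153282, 79666 and 60264 in Mul1(+/+). The other 5, mt-Nd3, mt-Nd4l, mt-Co3, mt-Atp6 and mt-Co2, had 2292, 786, 345, 116 and 105 per kilobase, although they lie on the same strand as mt-Co1. These 5 and the tRNAs mt-Tg and mt-Tr lie in the stretch chrM:6390-11042, 4653 bases long. It runs from the first to the last mRNA alignment with annotated pseudogenes on chromosome 1 at 99% identity or more. mt-Tg and mt-Tr lie between such alignments and were not matched themselves, being shorter than the 100 bases asked of a match. The stretch also holds the last 31.3% of mt-Co1, and 5 of the 10 mitochondrial genes not analysed here lie in it or reach into it. How the counting treated reads that match several places was not given in the sources used here, so the counts of these 7 members are uncertain.

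The copies at chr1:24613974-24614651 (Gm10925), chr1:24614885-24615565 (Gm28661) and chr1:24613189-24613971 (Gm28437), on the minus strand, are 100% identical to mt-Atp6 over 678 bases, to mt-Co2 over 681 bases and to mt-Co3 over 783 bases. mt-Nd3 differs from its copy Gm28438 at chr1:24612775-24613119 by 1 base in 345, T3C, and the copied part of mt-Co1 differs from Gm29216 at chr1:24615706-24616197 by 1 base in 483, A1066T. Each such change gives the base of the mitochondrial gene, its position from the gene's first base, and the base of the copy. The stretches around them show how little separates the pairs, with the differing base in capitals.
mt-Nd3: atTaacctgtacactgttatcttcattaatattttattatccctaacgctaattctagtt
Gm28438: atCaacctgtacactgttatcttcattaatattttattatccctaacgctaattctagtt
mt-Co1, from base 1063: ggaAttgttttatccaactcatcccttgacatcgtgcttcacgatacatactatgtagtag
Gm29216: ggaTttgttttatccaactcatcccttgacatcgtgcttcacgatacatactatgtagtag

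In the table, 8 genes matched mitochondrial mRNAs at 90% identity or more over at least 100 bases, 5 of them on chromosome 1 and 3 on chromosome 2. All 8 had higher means in Mul1(−/−) HFD-liver (56.8% of the table), with log2 fold changes from 1.28 to 1.95 (median 1.67). None passed the limma threshold, where 16.7% of the table passed as higher. An unadjusted p under 0.05 was found for 7, against 96.4% of the table in either direction. In 6 all Mul1(−/−) values lay above the controls, against 49.3% of the table and 86.8% of its higher genes. Mul1(−/−) replicate 1 was the highest of the 3 in all 8, against 35.9% of the table and 38.3% of its higher genes. Gm28661, the copy of mt-Co2, had normalized counts of 111, 80.6 and 89.0 in Mul1(+/+) and of 665, 228 and 118 in Mul1(−/−). The count of mt-Co2 divided by that of Gm28661 was 0.627 to 0.826 over the 6 libraries, and the count of mt-Atp6 divided by that of Gm10925 was 0.534 to 0.908. Between mt-Co3 and Gm28437 this ratio was 2.25 to 3.04, and between mt-Nd3 and Gm28438, which differ by 1 base, it was 20.2 to 34.4. For mt-Co1 against Gm29216, which covers only its end, the ratio was 6887 to 11941. On chromosome 1, the 3 pairs identical over their match had ratios between 0.534 and 3.04. Both pairs with 1 differing base had ratios of 20.2 or more. On chromosome 2, mt-Co2 against Gm13341, with 28 mismatches, had 1.79 to 3.21, while mt-Co1 against Gm13340 and mt-Nd2 against Gm13339 had 4633 or more. The ratios thus did not follow identity throughout, and what set them was not tested.

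**Figure D4:**
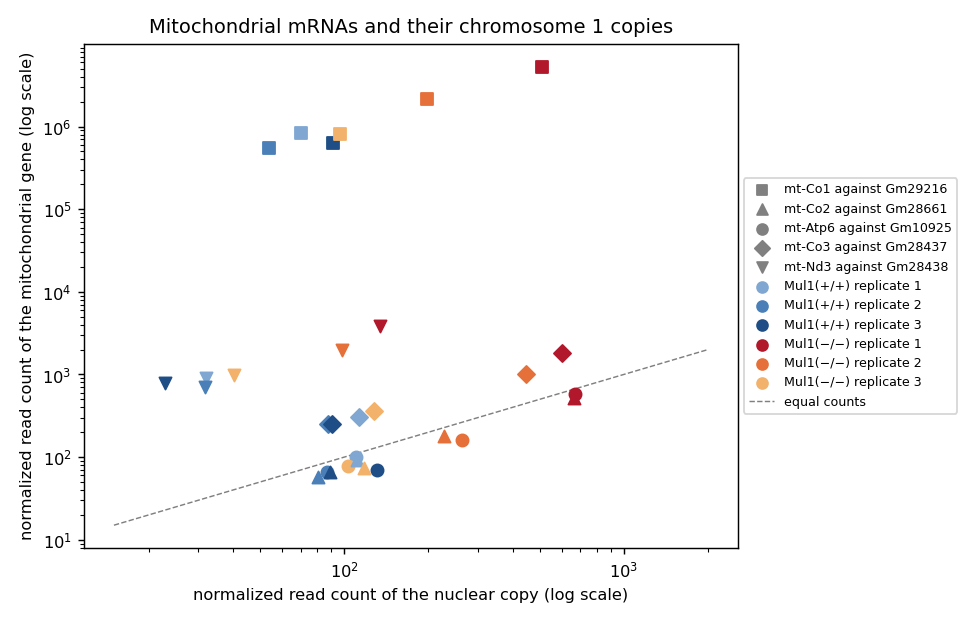
Normalized read counts (both axes log) of 5 mitochondrial mRNAs against their chromosome 1 copies, with 1 symbol shape per pair, 1 colour per library and a dashed line for equal counts. mt-Co2 and mt-Atp6 sit close under the line in all 6 libraries, mt-Co3 above it, and mt-Co1 at 6887 to 11941 times its copy.

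Outside the copied stretch, the 6 mRNAs with at least 32455 reads per library had a median log2 fold change of 1.14 (range 0.95 to 1.67), and replicate 3 was within the control range for all 6. The 14 tRNAs outside it had a median of 2.07. Inside it, the medians were 1.33 for the 5 mRNAs and 1.58 for the 2 tRNAs. The median difference was thus larger for tRNAs than for mRNAs outside the stretch as well. This did not hold for the tRNAs behind mt-Co1. Of these, mt-Tl2 (1.19), mt-Te (1.0) and mt-Tp (1.57) lie outside the stretch and were within the mRNA range of 0.95 to 1.67. The tRNA genes were in the search, but they are shorter than the 100 bases asked of a match. Copies of single tRNA genes could therefore not be listed.

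Nuclear genes that make, process and charge mitochondrial RNA were sparse in the table. Of 99 listed genes 10 were in it, 8 higher and 2 lower in Mul1(−/−) HFD-liver, where 56.8% of the table was higher. None passed the threshold in limma, where 16.7% of the table passed as higher and 7.43% as lower. All 10 had an unadjusted p under 0.05 and groups that did not overlap, which is close to the shares of the whole table (96.4% and 90.3%). The lists of transcription, RNA processing, DNA replication, RNA modification and tRNA charging had 2 of 10, 2 of 21, 1 of 12, 3 of 25 and 2 of 23 genes in the table, and regulators of mitochondrial biogenesis 0 of 8. Slirp, which with Lrpprc stabilises mitochondrial mRNAs, had counts of 619, 927 and 548 in Mul1(+/+) and of 2496, 4866 and 1540 in Mul1(−/−). The groups did not overlap, and the log2 fold change was 1.96 (standard error 0.49, limma adjusted p = 0.0101). Unlike the mitochondrial transcripts, Slirp was highest in replicate 2.

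Elac2, the nuclease that cuts mitochondrial tRNAs at their 3′ end, had counts of 1448, 1202 and 1509 in Mul1(+/+) and of 443, 207 and 732 in Mul1(−/−). All Mul1(−/−) values were below the controls, with a log2 fold change of −1.76 (standard error 0.49, limma adjusted p = 0.0129, exact permutation p = 0.1). Lars2, which charges the leucine tRNAs mt-Tl1 and mt-Tl2, had counts of 6946, 8141 and 7356 in Mul1(+/+) and of 48495, 25444 and 10174 in Mul1(−/−). The Mul1(−/−) libraries were in the same order as for the mitochondrial transcripts, and the log2 fold change was 1.64 (standard error 0.55, limma adjusted p = 0.0203). Sars2, the mitochondrial seryl-tRNA synthetase, was lower (log2 fold change −1.33, limma adjusted p = 0.0231). The mitochondrial termination factors Mterf1a (1.5) and Mterf1b (1.77), the single-stranded DNA binding protein Ssbp1 (1.27) and the RNA modification genes Qtrt2 (1.09), Yrdc (1.27) and Mettl15 (1.06) had log2 fold changes above 1 and limma adjusted p-values from 0.0143 to 0.0465. Elac2, Lars2 and the others of this paragraph are named after their values were seen, since none passed the threshold. Polrmt, Tfam, Lrpprc and Ppargc1a were not analysed here.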

How the data were processed

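Liver mRNA of 3 Mul1(+/+) and 3 Mul1(−/−) mice on HFD was sequenced and analysed by GENEWIZ for the authors, who used the Wald test of DESeq2 to compare genotypes. The aligner, counting tool, genome build, annotation and strand setting were not given in the sources used here. The authors deposited, for 3542 genes selected by that test, normalized read counts per library, and the log2 fold changes and p-values of the test. These test columns (log2 fold changes and p-values) were used only to see how the table was selected (0 genes outside its limits). Below 10000, 100% of the values of each library came out as whole reads (tolerance 0.1 read), which gave the reads quoted.

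A pseudocount of 1 was added, log2 was taken and genotype was fitted with limma 3.58.1 in R 4.3.3, without a filter on low values. Fold changes on this scale understate those of genes with few reads. Sums, ratios, exact tests and plots were made in Python 3.11.15 (pandas 2.3.3, numpy 2.4.6, matplotlib 3.10.9, scipy 1.17.1). limma was tested on simulated data. Copies were found with blastn 2.17.0 between GENCODE M21 transcripts, to which 3529 identifiers matched and 13 did not. The authors' build may differ. mRNAs and the most abundant 3 tRNAs, with tRNAs past the threshold, are given in full by rule. Members, lists and tests were chosen with earlier results of these data known. Each library was taken as 1 mouse, from the 3 mice per group of the labels.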

Additional observations from a re-analysis of the deposited data

How the results depend on the processing

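All 27 mitochondrial transcripts were higher in Mul1(−/−) HFD-liver under every setting run, and no log2 fold change of a named gene reversed. The number past the threshold, 1, depended on the settings. It was 9 with a pseudocount of 10, 7 after rescaling by the table's total, 13 with limma-trend, 20 with the adjusted p limit at 0.05, and 0 after rescaling by the median ratio, where the whole table passed as higher in 22%, 17.5%, 27.2%, 53% and 6.66%. It was 0 with the replicate block, which left 0 calls in the whole table. The sample titles do not say whether the replicate numbers pair the animals. Same-number correlations of the deviations from the group means were 0.0218, 0.352 and 0.0541, and the others ran from −0.200 to 0.132. With 3 libraries per group these values cannot settle whether animals were paired. Leaving out 1 library at a time, the number past the threshold ranged from 0 to 23. It was 0 without Mul1(+/+) replicate 1, 2 or 3 or Mul1(−/−) replicate 2, where 0.536%, 0.282%, 0.875% and 0.254% of the table passed as higher. It was 1 without Mul1(−/−) replicate 1 (12.4% of the table) and 23 without Mul1(−/−) replicate 3, where 45% of the table passed as higher.

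For mt-Tw, the adjusted p was 0.0123 after rescaling by the median ratio (log2 fold change 2.19) and 0.0159 with the replicate block. Rescaling by the median ratio moved the median of all genes by −0.66, by the table's total by −0.30, and by that total without the mitochondrial genome by 0.04. The median log2 fold change of the mRNAs was 0.59 under the first and 0.55 without Mul1(−/−) replicate 1, and that of the tRNAs was 1.25 and 1.37.

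The difference of the mitochondrial share, 17 percentage points, ranged from 6.90 (without Mul1(−/−) replicate 1) to 23.9, and the difference of the log2 tRNA to mRNA ratio from 0.05 (without Mul1(−/−) replicate 2) to 0.42. Without mt-Tp and mt-Co1 the latter was 0.63. Leaving out the members in the chromosome 1 copy, a setting chosen after seeing the data, gave 17 and 0.25. The planned count tests on recovered reads were not run, and the rRNA to mRNA ratio has no value because the table holds 0 rRNA rows. Depth limited mt-Tw most, at 15 reads in 1 library.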

Other observations

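Other abundant RNAs had the library order of the mitochondrial transcripts or a like spread, and were picked after their values were seen. Malat1, a long noncoding RNA of the nucleus, had normalized counts of 1713, 1937 and 1635 in Mul1(+/+) and of 39176, 14695 and 3329 in Mul1(−/−) replicates 1 to 3 (log2 fold change 2.82, standard error 0.74, limma adjusted p = 0.0112). The groups did not overlap, and replicate 3 was the closest to the controls. Gm42418, annotated as a noncoding RNA on chromosome 17 that overlaps an rRNA gene on the opposite strand, had counts of 47114, 43881 and 43151 in Mul1(+/+) and of 455583, 546686 and 76621 in Mul1(−/−) (log2 fold change 2.58, standard error 0.67, limma adjusted p = 0.0110). Its highest library was replicate 2, not replicate 1, and replicate 3 was again the closest to the controls. Their part in the mitochondrial differences was not tested.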
